A study of Mus musculus with 4 samples.

Results

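The transcripts of 7 genes that write, maintain or remove methylation of cytosine in DNA were followed in regulatory T (Treg) cells. The cells came from mice with and without a conditional knockout of the histone methyltransferase Nsd2. The 7 genes are the methyltransferases Dnmt1, Dnmt3a and Dnmt3b, the maintenance factor Uhrf1, and the dioxygenases Tet1, Tet2 and Tet3. The genes were chosen by name, as rows of the 4 library tables whose gene column holds one of these symbols. All 7 were found, in 15 of 19291 transcript rows, and they were 7 of 14220 genes with a name. For each gene the transcript row of highest mean was used. All 7 had a mean of at least 1 RPKM (reads scaled by transcript length and library size) and were tested.

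Methyl groups on cytosines that precede a guanine (CpG sites) are copied to the new strand after replication by Dnmt1, which Uhrf1 brings to hemimethylated DNA. Dnmt3a and Dnmt3b place new methylation, and their PWWP domains bind histone H3 methylated on lysine 36, the mark that Nsd2 writes in its dimethylated form. Tet enzymes oxidise the methyl group, which leads to its loss by repair or by dilution at replication. In Treg cells, loss of methylation at an intronic enhancer of Foxp3 is known to stabilise the expression of this lineage-defining factor.

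The study profiled Treg cells sorted from the spleen of C57BL/6 mice, in 2 libraries of wild-type (WT) mice and 2 of mice whose Treg cells carry a conditional knockout (cKO) of Nsd2. Each library held RNA from a pool of 3 or more mice, sequenced as single-end reads of 50 nt, so n = 2 in each group counts pools. The Cre driver, the deleted exons, and the age and sex of the mice are not given in the sources used, and no treatment is named. The comparison of cKO with WT asks how the Treg transcriptome differs with this knockout.

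Depth, read from the steps between low values, was about 19070000 to 21220000 reads per library. Nsd2 itself had 6.82 and 7.44 RPKM in the WT libraries, against 3.46 and 4.27 RPKM in the cKO libraries, so both cKO libraries lay below both WT libraries and the cKO mean was 54.2% of WT. T and Treg cell markers were abundant in every library, with Cd3e between 249 and 266 RPKM and Foxp3 between 113 and 145 RPKM. Markers of other cells were present at low levels. Of 6 B cell markers 3 were analysed, and their summed level was 8.46 and 6.78 RPKM in the WT pair, against 11.7 and 10.8 RPKM in the cKO pair. The 8 macrophage and myeloid markers summed to 9.19 and 12.98 RPKM in the WT pair, against 24.8 and 8.27 RPKM in the cKO pair, with the highest value in cKO replicate 1. The 3 erythroid markers analysed of 4 were also highest in cKO replicate 1, at 20.8 RPKM against 3.87 to 11.5 RPKM in the other libraries. The 5 CD8 T and NK cell markers analysed of 6 summed to 15.7 to 20.1 RPKM over the 4 libraries, and the ranges of the genotypes overlapped. No marker analysed was at 0 in a library.

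Dnmt1 and Tet3 were the most abundant of the 7 transcripts, and Tet1 and Dnmt3b the least. Over the 4 libraries the mean level was 35.7 RPKM for Dnmt1, 33.8 RPKM for Tet3, 17.4 RPKM for Dnmt3a, 9.65 RPKM for Uhrf1, 8.89 RPKM for Tet2, 2.51 RPKM for Dnmt3b and 1.44 RPKM for Tet1. In this order the ranges of Dnmt1 and Tet3 overlapped, and Dnmt1 was the higher of the pair in 2 of 4 libraries. These were the cKO libraries, while Tet3 was the higher in both WT libraries. This difference in order was not tested. Uhrf1 and Tet2 also overlapped, with Uhrf1 higher in 3 of 4 libraries. Every other pair of neighbours had ranges that lay apart in all 4 libraries. Dnmt1 exceeded 88.5% of all 14220 genes by its mean, whereas Tet1 exceeded 28.1% of them.

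**Figure D1:**
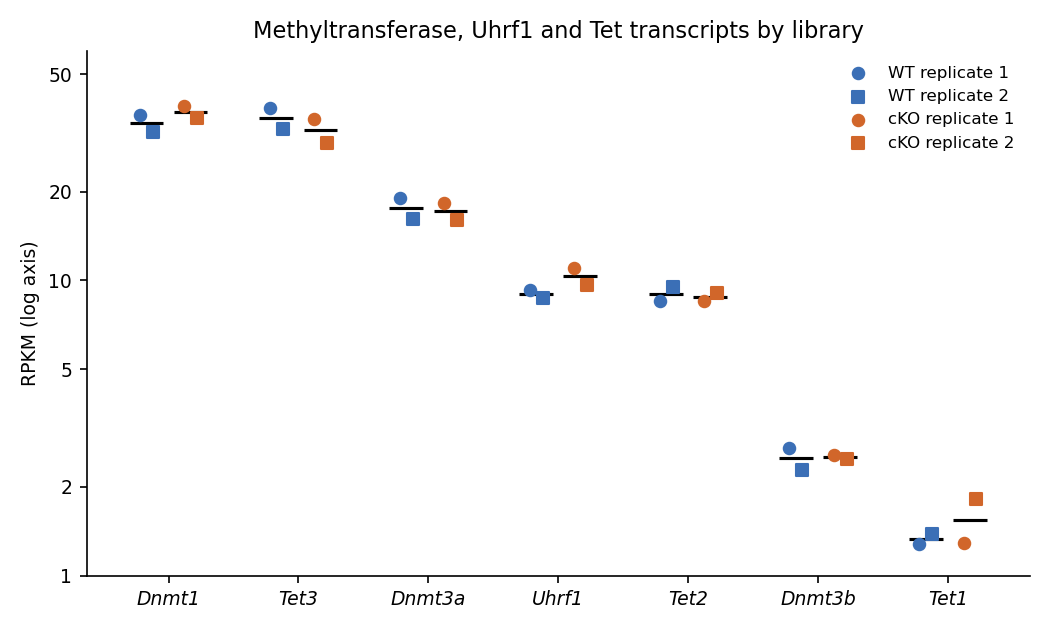
Level of each transcript in RPKM on a log axis, with circles for replicate 1, squares for replicate 2, blue for WT, orange for cKO and a black line at each group mean (n = 2 libraries). Dnmt1 and Tet3 lead and Tet1 is lowest in all 4 libraries, and only for Uhrf1 do both cKO points (11.0 and 9.65 RPKM) lie above both WT points (9.25 and 8.69 RPKM).

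No member passed the test of cKO against WT. The limma fit over 10709 genes, on log2(RPKM + 1) with Benjamini-Hochberg adjustment, gave each of the 7 an adjusted p of 0.9998. It called 0 of the 10709 genes (0%), and 332 genes (3.1%) had an unadjusted p under 0.05, none of the 7 among them in this fit. Nsd2, the gene knocked out, was not called either (limma, unadjusted p = 0.0031, adjusted p = 0.9998). A gene left uncalled by this fit may therefore still differ. The cKO libraries were both above the WT libraries for 1 of the 7, Uhrf1, where 17.4% of all tested genes did, and below them for 0 of 7, where 9.06% did. After median-of-ratios scaling the order of these shares turned, with 1299 genes separated upward and 1478 downward against 1860 and 970 before, and Uhrf1 stayed separated by a narrow gap, from 9.343 in the higher WT to 9.352 in the lower cKO library. The log2 difference was above 0 for 4 of 7, against 59.2% of all tested genes, and for 3 of 7 against 45.5% after median-of-ratios scaling. For 6 of the 7 the difference between group means was smaller than the larger of both SDs, and Uhrf1 was the exception.

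Uhrf1, which binds hemimethylated CpG sites and recruits Dnmt1 to them, showed the largest log2 difference of the 7 on the deposited scale, while after median-of-ratios scaling Tet3 (-0.18) was farther from 0 than Uhrf1 (0.14). Uhrf1 had 9.25 and 8.69 RPKM in the WT libraries, against 11.0 and 9.65 RPKM in the cKO libraries. Both cKO libraries were the higher ones, by a margin of the lower cKO over the higher WT library that is small beside the gap between the cKO libraries. The mean was 8.97 ± 0.396 RPKM in WT against 10.3 ± 0.972 RPKM in cKO (SD, n = 2), which puts the cKO mean at 115% of WT. On the log2(RPKM + 1) scale the difference was 0.18 with a standard error of 0.13 and a 95% confidence interval from -0.15 to 0.51 (limma, unadjusted p = 0.221). All 4 Uhrf1 rows (NM_001111080.1, which was used, NM_001111078.1, NM_001111079.1 and NM_010931.3) were separated in the same way. They lay at 97.5% or more of the row used in each library, and about 564 to 720 reads stood behind that row. In WT replicate 1 about 613, 609, 619 and 635 reads stood behind the 4 rows, so the rows are not separate measurements. The B cell markers were also higher in both cKO libraries, and the summed myeloid and erythroid markers were highest in cKO replicate 1, the library with the highest Uhrf1. Of the 8 myeloid markers, Lyz2 and Itgam were exceptions, with 0.984 RPKM of Lyz2 in that library against 1.07 and 1.09 RPKM in WT, and Itgam highest in cKO replicate 2. Without that library the log2 difference of Uhrf1 was 0.10. The part of these markers in the Uhrf1 values was not tested. In sorted bulk samples a change in the share of cells that hold a transcript and a change in its amount per cell cannot be told apart.

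Dnmt1, the maintenance methyltransferase, had 36.4 and 31.9 RPKM in the WT libraries, against 38.9 and 35.6 RPKM in the cKO libraries. The ranges overlapped, because cKO replicate 2 lay below WT replicate 1. The means were 34.2 ± 3.17 and 37.2 ± 2.33 RPKM (SD, n = 2 each), and the log2 difference was 0.12 with a 95% confidence interval from -0.21 to 0.45 (limma, unadjusted p = 0.403). The ratio of Uhrf1 to Dnmt1 within a library was 0.254 and 0.272 in WT and 0.284 and 0.271 in cKO. These ranges overlapped, and the exact permutation test over libraries gave p = 0.667 (two-sided, adjusted p = 1 over the 3 ratios compared). With 2 libraries against 2 this test cannot go below 0.333. With the rows of each gene summed, which counts shared reads more than once, the ratio was 1.01 and 1.08 in WT and 1.12 and 1.08 in cKO, still with overlapping groups.

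Promoter windows of RefSeq (GRCm38.p6, 250 bases before to 50 after a start site) are shown for Dnmt1 and Uhrf1, which act together at replication, and for Tet2, whose window held the most CpG sites of the 7 genes. Capitals mark the words TTTCCCGC, TTTCGCGC, TTTGCCGC and TTTGGCGC, forms of the site of the E2F factors that drive S phase genes, read on either strand. Each sequence runs 5′ to 3′ on the strand of its gene.
Dnmt1, chr9:20952574-20952873, minus strand: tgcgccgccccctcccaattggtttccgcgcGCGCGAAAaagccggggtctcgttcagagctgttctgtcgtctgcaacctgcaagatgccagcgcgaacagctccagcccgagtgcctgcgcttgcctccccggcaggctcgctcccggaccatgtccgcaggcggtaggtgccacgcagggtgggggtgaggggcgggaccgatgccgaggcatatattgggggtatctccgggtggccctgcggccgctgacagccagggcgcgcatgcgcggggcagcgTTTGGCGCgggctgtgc
Uhrf1, chr17:56304063-56304362, plus strand: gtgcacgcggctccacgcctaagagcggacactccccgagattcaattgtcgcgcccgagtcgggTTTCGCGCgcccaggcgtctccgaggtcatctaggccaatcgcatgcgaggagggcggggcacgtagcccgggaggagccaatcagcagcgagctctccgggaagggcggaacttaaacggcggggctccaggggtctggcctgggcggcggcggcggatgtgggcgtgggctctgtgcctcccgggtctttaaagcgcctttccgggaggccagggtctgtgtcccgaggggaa
Tet2, chr3:133544341-133544640, minus strand: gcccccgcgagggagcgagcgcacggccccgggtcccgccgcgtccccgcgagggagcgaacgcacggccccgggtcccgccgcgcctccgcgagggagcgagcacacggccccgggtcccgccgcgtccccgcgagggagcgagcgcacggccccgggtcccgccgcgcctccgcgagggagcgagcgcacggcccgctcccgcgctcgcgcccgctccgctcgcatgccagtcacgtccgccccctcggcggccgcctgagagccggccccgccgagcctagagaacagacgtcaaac

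Of the 7 genes only Dnmt1 and Uhrf1 had such a word in any of their 12 windows. The windows shown for Dnmt1 and Uhrf1 are the ones that hold a word. RefSeq gives 2 further windows of Dnmt1, with 12 and 2 CpG sites, and 1 further window of Uhrf1, with 12 CpG sites, and none of these held a word. The Dnmt1 window shown held 2 of them, TTTGGCGC at 33 bases after the start site and GCGCGAAA, which is TTTCGCGC on the other strand, at 219 bases before it. That window also covers annotated coding sequence and UTR of Dnmt1 from another start. The Uhrf1 window shown held TTTCGCGC at 185 bases before the start site. Among all 32851 windows 2.26% held a word, and by gene 2.6% of 27025 genes did. Each word contains a CpG site, and windows of like CpG content were not compared. Of the 16 S phase and proliferation genes with a window, 6 held a word. CpG sites numbered 33 in the Dnmt1 window shown, 33 in the Uhrf1 window shown and 57 in the Tet2 window, where the median window held 7 and 99.8% of windows held fewer than Tet2. These letters describe the windows, and no binding or methylation was measured.

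Dnmt3a and Dnmt3b, the de novo methyltransferases, were close between the genotypes. Dnmt3a had 19.09 and 16.1 RPKM in the WT libraries, against 18.3 and 16.0 RPKM in the cKO libraries, so each genotype had one library near the top and one near the bottom of the range. Its means were 17.6 ± 2.09 and 17.2 ± 1.64 RPKM (SD, n = 2 each). The log2 difference was -0.03, with a 95% confidence interval from -0.39 to 0.32 (limma, unadjusted p = 0.819). Its other row, NM_153743.3, lay at 94.4% to 98.2% of the row used, NM_007872.4. The 2 rows thus gave nearly the same level.

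Dnmt3b was the least abundant methyltransferase. It had 2.71 and 2.28 RPKM in the WT libraries, against 2.56 and 2.48 RPKM in the cKO libraries. Both cKO values fell between the WT values. The log2 difference was 0.01, with a 95% confidence interval from -0.35 to 0.37 (limma, unadjusted p = 0.934), and it was -0.02 after median-of-ratios scaling. About 177 to 215 reads stood behind each value, for which counting alone gives an SD of 7.52%. All 5 Dnmt3b rows lay at 94.2% or more of the row used, NM_010068.4. In WT replicate 1 about 215, 216, 216 and 215 reads stood behind 4 of them and about 184 behind the fifth, NM_001122997.1, so the rows are not separate measurements. The ratio of Dnmt3a to Dnmt3b was 7.05 and 7.06 in WT and 7.17 and 6.44 in cKO (exact permutation p = 1, two-sided, adjusted p = 1 over 3 ratios). With the transcript rows of each gene summed, it was 2.879 and 2.868 in WT and 2.866 and 2.604 in cKO, so the groups no longer overlapped but the nearest values of both were 2.868 and 2.866 (exact permutation p = 0.333, two-sided, the smallest this design allows, adjusted p = 0.667).

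Tet3 was the leading Tet enzyme in every library. It had 38.4 and 32.5 RPKM in the WT libraries, against 35.2 and 29.3 RPKM in the cKO libraries. The lowest value was a cKO library and the highest a WT library, and the ranges overlapped. The means were 35.4 ± 4.14 and 32.3 ± 4.17 RPKM (SD, n = 2 each). The log2 difference was -0.13, with a 95% confidence interval from -0.52 to 0.25 (limma, unadjusted p = 0.425). Counting error was small here, with 6760 to 8149 reads and a counting SD of 1.22%, while the SD between WT libraries was 11.7% of their mean.

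Tet2 had 8.50 and 9.50 RPKM in the WT libraries, against 8.51 and 9.04 RPKM in the cKO libraries, so both cKO values fell between the WT values. The log2 difference was -0.03, with a 95% confidence interval from -0.36 to 0.29 (limma, unadjusted p = 0.818). The ratio of Tet2 to Tet3 was 0.222 and 0.292 in WT and 0.242 and 0.308 in cKO (exact permutation p = 0.667, two-sided, adjusted p = 1 over 3 ratios).

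Tet1, the Tet enzyme best known from pluripotent cells, was close to the limit of 1 RPKM set for testing. It had 1.28 and 1.39 RPKM in the WT libraries, against 1.29 and 1.81 RPKM in the cKO libraries. Its mean in cKO was 116% of that in WT, which rested on cKO replicate 2 alone, since the other cKO library equalled the lowest WT library within 0.01 RPKM. The log2 difference was 0.12, with a 95% confidence interval from -0.29 to 0.52 (limma, unadjusted p = 0.496), and it was -0.03 without cKO replicate 2. The row used, NM_027384.1, was matched by its symbol, and its length in the files is not given.

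**Figure D2:**
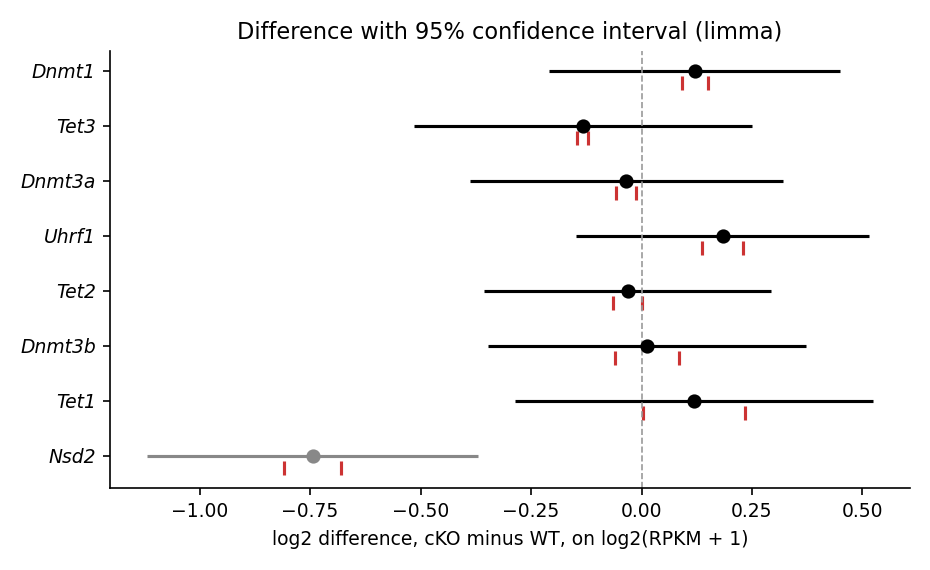
Log2 difference of cKO minus WT on log2(RPKM + 1) for each gene (points) with its 95% confidence interval from limma (lines). Red ticks mark the difference of cKO minus WT taken once within the libraries numbered 1 and once within those numbered 2. All 7 intervals include 0, the 2 widest reaching from -0.52 to 0.25 for Tet3 and from -0.29 to 0.52 for Tet1, while Nsd2 (grey) ran from -1.12 to -0.37.

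Read as folds on the (RPKM + 1) scale, the same 95% intervals ran from 0.865-fold to 1.37-fold for Dnmt1, from 0.764-fold to 1.25-fold for Dnmt3a, from 0.786-fold to 1.3-fold for Dnmt3b and from 0.903-fold to 1.43-fold for Uhrf1. For the Tet genes they ran from 0.82-fold to 1.44-fold for Tet1, from 0.781-fold to 1.23-fold for Tet2 and from 0.699-fold to 1.19-fold for Tet3. These intervals are not adjusted for the number of genes, and for Tet1 and Dnmt3b the added 1 draws the fold towards 1. The median standard error of the 7 was 0.143, near the 0.151 of all tested genes.

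Within each family the division among members was much alike in all libraries. The 3 methyltransferases summed to 50.4 to 59.7 RPKM. Dnmt1 supplied 62.6% and 63.4% of that sum in WT and 65.1% and 65.8% in cKO. Dnmt3a supplied 32.8% and 32.0% in WT and 30.7% and 29.6% in cKO. The groups did not overlap for either share, which move against each other by construction and were singled out after their values were seen. Dnmt3b supplied 4.28% to 4.65%. The 3 Tet genes summed to 40.2 to 48.2 RPKM, of which Tet3 supplied 73.0% to 79.7%, Tet2 17.7% to 22.5% and Tet1 2.66% to 4.51%, each with overlapping groups.

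**Figure D3:**
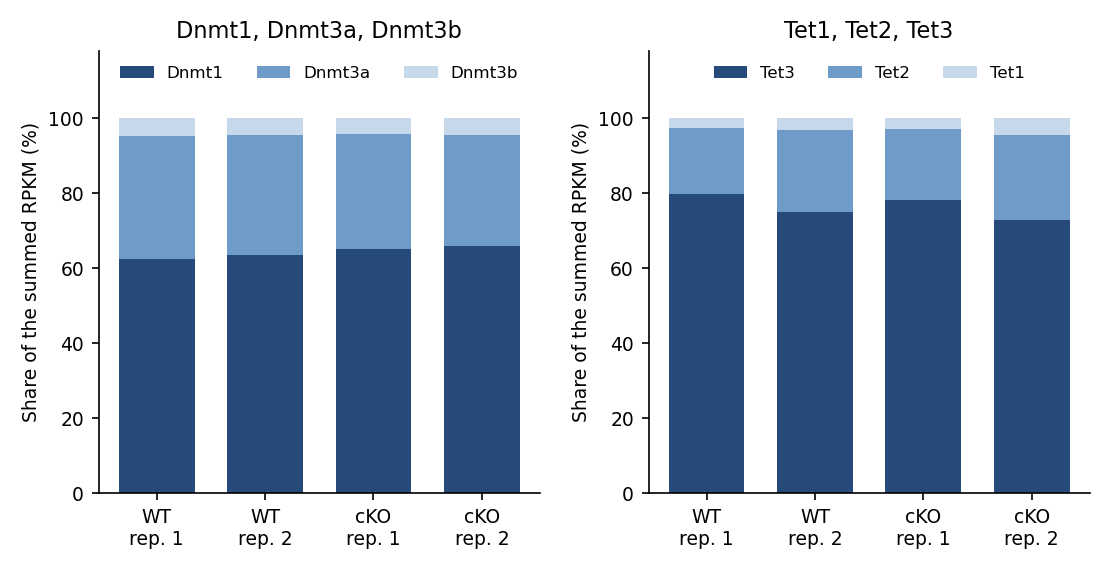
Share of the summed RPKM of each family in percent, for each of the 4 libraries, with the methyltransferases on the left and the Tet genes on the right. Dnmt1 takes 62.6% to 65.8% of the left bars and Tet3 73.0% to 79.7% of the right bars.

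Genes that work with the methyltransferases were read from lists chosen by function, and none of their members was called. Of 12 tested partners of the methyltransferases, 10 had a log2 difference above 0 and 7 did after median-of-ratios scaling, with a median of 0.06 against 0.03 over all tested genes. Hdac1, a histone deacetylase that binds Dnmt1, had 66.6 and 65.6 RPKM in the WT libraries, against 78.0 and 74.1 RPKM in the cKO libraries (limma, unadjusted p = 0.146). Cdca7, which recruits the chromatin remodeller Hells, had 11.6 and 11.0 RPKM in the WT libraries, against 8.72 and 11.1 RPKM in the cKO libraries. Dnmt3l and Zfp57 were not analysed here. Of 7 readers of methylated CpG sites, 3 were above 0, with a median of -0.04. Among these Zbtb38 had 15.1 and 13.4 RPKM in the WT libraries, against 13.2 and 13.3 RPKM in the cKO libraries. Uhrf2, the paralog of Uhrf1, had 21.5 and 25.1 RPKM in the WT libraries, against 21.1 and 22.3 RPKM in the cKO libraries, more abundant than Uhrf1 in every library.

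On the Tet side, 5 of 9 partners and cosubstrate enzymes were above 0, with a median of 0.002, and 4 were after scaling. Idh2, the mitochondrial isocitrate dehydrogenase that makes the Tet cosubstrate 2-oxoglutarate, had 9.93 and 10.3 RPKM in the WT libraries, against 13.7 and 15.6 RPKM in the cKO libraries. Both cKO libraries were well above both WT libraries, with a log2 difference of 0.49, an unadjusted limma p of 0.0103 and an adjusted p of 0.9998. D2hgdh, which removes the Tet inhibitor D-2-hydroxyglutarate, had 14.2 and 12.8 RPKM in the WT libraries, against 12.5 and 10.2 RPKM in the cKO libraries. Of 13 genes of base excision and the Gadd45 family, 7 were above 0 (5 after scaling). Gadd45a, a stress-induced factor linked to demethylation, had 5.07 and 6.02 RPKM in the WT libraries, against 4.08 and 4.80 RPKM in the cKO libraries. Neil2, a DNA glycosylase, had 1.02 and 0.955 RPKM in the WT libraries, against 1.20 and 1.52 RPKM in the cKO libraries. Neither passed the test (limma, unadjusted p = 0.141 and 0.155).

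The methyl-donor cycle makes S-adenosylmethionine, the substrate of the methyltransferases. Of its 13 genes 11 were above 0 (9 after scaling), where 59.2% of all tested genes were (45.5% after scaling). The 2 below 0 were Mtr and Mat2a, which codes for the enzyme that makes S-adenosylmethionine itself. Mat2a had 35.1 and 57.3 RPKM in the WT libraries, against 34.5 and 47.1 RPKM in the cKO libraries, with overlapping ranges. The median was 0.06, and 4 were separated upward, where 17.4% of all tested genes were. Mthfd1, an enzyme of folate metabolism, had 12.1 and 12.3 RPKM in the WT libraries, against 13.4 and 14.7 RPKM in the cKO libraries. Shmt1, the cytosolic serine hydroxymethyltransferase, had 5.43 and 5.92 RPKM in the WT libraries, against 6.37 and 6.92 RPKM in the cKO libraries. Among 8 writers and erasers of lysine 36 methylation on histone H3, 7 were below 0 with Nsd2 among them. Only 1 was above 0 (1 after scaling), where 59.2% of all tested genes were (45.5% after scaling). Separated downward were 2, Nsd2 among them, where 9.06% of all tested genes were. None other than Nsd2 had an unadjusted limma p under 0.05. Ash1l, the one of lowest p after Nsd2, had 14.1 and 16.6 RPKM in the WT libraries, against 12.7 and 14.8 RPKM in the cKO libraries.

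Among the pathway lists, S phase and proliferation genes had the largest share of members above 0, also after scaling. Of 19 tested, 18 were above 0, where 59.2% of all tested genes were, and 6 were separated upward, where 17.4% of all tested genes were. Their median log2 difference was 0.08, against 0.03 over all tested genes. The number above 0 was 16 after scaling (45.5% of all tested genes) and 12 to 15 when a library was left out. The B cell markers were likewise higher in both cKO libraries, and their part in these counts was not tested. Chaf1b, a subunit of the chromatin assembly factor that works behind the replication fork, had 5.04 and 4.61 RPKM in the WT libraries, against 7.20 and 6.02 RPKM in the cKO libraries. Its limma unadjusted p was 0.0431 and its adjusted p 0.9998. Top2a, the topoisomerase of dividing cells, had 10.9 and 11.0 RPKM in the WT libraries, against 13.01 and 15.5 RPKM in the cKO libraries (limma, unadjusted p = 0.0472, adjusted p = 0.9998). Uhrf1 and Dnmt1 are themselves known to rise in S phase, and these counts do not say whether they moved with the list.

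**Figure D4:**
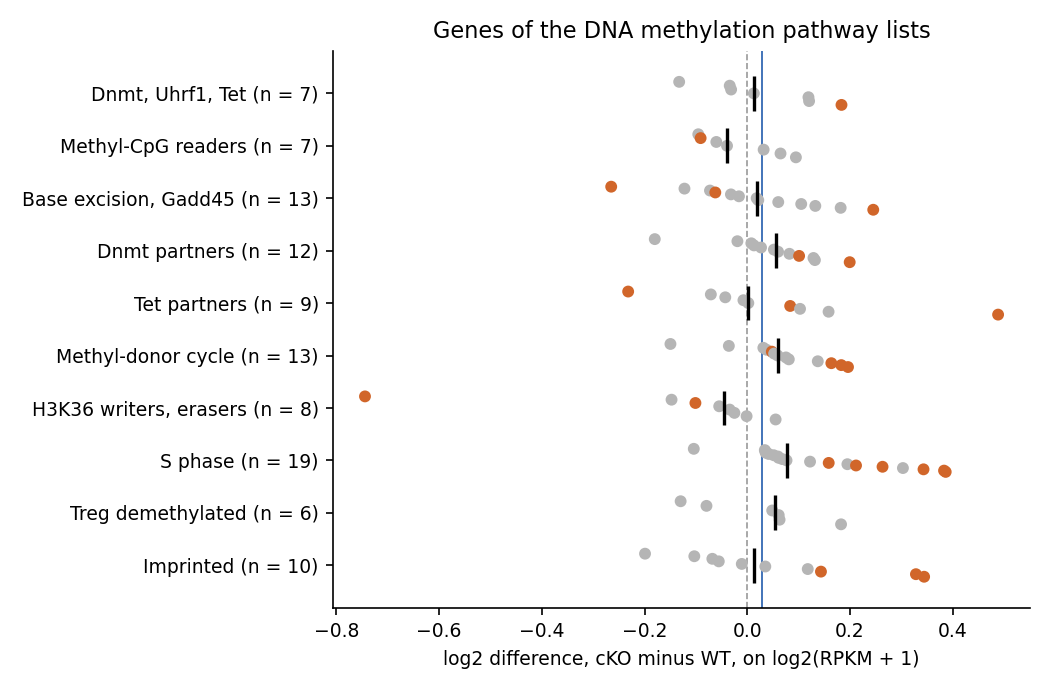
Log2 difference of cKO minus WT on log2(RPKM + 1) for each tested gene of 10 lists, in orange where the 2 cKO libraries lie both above or both below the 2 WT libraries, with a black line at the median of each list and a blue line at the median of all 10709 tested genes (0.03). Nsd2 at -0.74 and Idh2 at 0.49 lie farthest from 0, and the 7 genes at the top lie between -0.13 and 0.18.

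Genes known to depend on DNA methylation were also described. The 6 Treg genes with a region that is demethylated in Treg cells all overlapped between the genotypes. Most tested genes did so too, since 17.4% of them were separated upward and 9.06% downward. Il2ra, a chain of the receptor for interleukin 2, had 104 and 112 RPKM in the WT libraries, against 104 and 146 RPKM in the cKO libraries. Ctla4, which restrains costimulation, had 105 and 125 RPKM in the WT libraries, against 91.9 and 119 RPKM in the cKO libraries. Foxp3 had 144 and 128 RPKM in the WT libraries, against 145 and 113 RPKM in the cKO libraries. Of 10 germline genes that methylation silences in somatic tissue, 2 were analysed, and both were far below the limit for testing. Tdrd1 was at most 0.0577 RPKM and Brdt at most 0.359 RPKM in any library. Of 10 imprinted genes tested, 5 were above 0 and 3 were separated upward, where 59.2% and 17.4% of all tested genes were. Nnat had 0.996 and 1.15 RPKM in the WT libraries, against 1.56 and 1.70 RPKM in the cKO libraries (limma, unadjusted p = 0.0538). Airn, a noncoding RNA antisense to Igf2r, had 3.31 and 3.82 RPKM in the WT libraries, against 4.02 and 5.52 RPKM in the cKO libraries, a value that cannot be told from Igf2r reads if strand was not used.

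For each of the 7 genes the gene with the most similar pattern over the 4 libraries was found among 8373 genes whose mean reached 4 RPKM, by the root mean square difference of their log2(RPKM + 1) values about their own means. It was Traf3ip2 for Dnmt1 (0.0035), Trak1 for Dnmt3a (0.0036), Pdp2 for Dnmt3b (0.0064), Bnip1 for Uhrf1 (0.0046), Ppif for Tet1 (0.0060), Bud31 for Tet2 (0.0080) and Abtb2 for Tet3 (0.0114). Bnip1, for example, had 8.36 and 7.80 RPKM in the WT libraries, against 9.97 and 8.75 RPKM in the cKO libraries. These matches describe 4 libraries and say nothing of shared function or control.

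Some of the 7 genes share their locus with other annotated genes. Overlaps were read from GENCODE M21 and the positions given are those of RefSeq, both on GRCm38. Dnmt3a (chr12:3801559-3914443), Dnmt3b (chr2:153649411-153687730), Tet2 (chr3:133463677-133545136) and Tet3 (chr6:83362373-83457208) each overlap a gene on the other strand. Uhrf1 (chr17:56303337-56323486) overlaps no other gene. Dnmt1 (chr9:20907206-20959888) and Tet1 (chr10:62804570-62887469) overlap genes on their own strand only. Tet3 also overlaps genes on its own strand. Use of strand in the counting is not given in the sources used, and reads of such partners may enter these values.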

How the data were processed

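RNA-seq tables of 4 libraries (2 WT, 2 cKO) were used, grouped and numbered as the labels say. The values the authors deposited are RPKM per RefSeq transcript. The unit was read from the values, since no header names it. The submitters' processing notes list HISAT2, DESeq2 and mm10, without roles or versions. The counting tool, row filter and use of strand are not given in the sources used. Of 19291 rows, 16717 were matched by accession to RefSeq genes of GRCm38.p6, the build mm10 names. Another 1405 were taken by their gene name, whether or not RefSeq lists that name. The 1169 rows without a gene name (10.3% to 11.5% of the RPKM sum) were left out. The highest row per gene was used, and the 10709 of 14220 genes whose mean reached 1 RPKM were tested. The test was limma 3.58.1 in R 4.3.3 on log2(RPKM + 1), with genotype as its only term, robust trended moderation and two-sided p-values. A fold on that scale understates changes of low genes. Depth came from low values that step by whole reads. With GENCODE M21 lengths, which need not be those of the files, 59.7% to 61.1% of values under 20 reads were at most 0.1 from a whole number. Reads behind a value are therefore approximate. Neighbouring levels were compared by range, and 3 ratios by exact permutation.

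The members and lists were chosen with earlier results of these data known. Named genes were the 7 members, Nsd2, Foxp3 and the 2 tested genes of lowest p in each pathway list. For each member 1 gene of most similar pattern was also named. Tdrd1, Brdt, Cd3e, Mat2a and Mtr were added after their values were seen. P-values measure the spread between pools, which may be partly technical. Alternatives changed the pseudocount, scaling, filter, block, transcript rows and libraries. Python 3.11.15, pandas 2.3.3 and matplotlib 3.10.9 were also used.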

Additional observations from a re-analysis of the deposited data

How the results depend on the processing

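None of the 7 genes was called in any of 9 alternatives (63 results, limma's adjusted p from 0.327, reached with the replicate block, to 1). Directions held for Dnmt1, Uhrf1 and Tet3 in all 9. When a library was left out, the log2 difference ran from 0.03 to 0.21 for Dnmt1, 0.10 to 0.27 for Uhrf1, -0.26 to -0.004 for Tet3, -0.15 to 0.081 for Dnmt3a, -0.075 to 0.10 for Dnmt3b, -0.030 to 0.27 for Tet1 and -0.10 to 0.041 for Tet2. Dnmt3b also turned to -0.021 with median-of-ratios scaling. The log2 difference of a ratio ran from 0.03 to 0.13 for Uhrf1 to Dnmt1, -0.13 to 0.022 for Dnmt3a to Dnmt3b and -0.10 to 0.30 for Tet2 to Tet3.

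Over all genes, 21 to 66 were called when a library was left out, in fits that take the lone library to vary as the other group does, and 1 with the replicate block (Cxcr4, limma's adjusted p = 0.047). The cause was not tested. Libraries of the same number deviated together over 10709 genes (correlation 0.503), but the labels tie the numbers to nothing, so this is a hint from the data. The block moved the number of genes with an unadjusted p under 0.05 from 332 to 1638 of the 10709 tested. Of the 7 members 1 was among the 1638, Uhrf1 (limma, unadjusted p = 0.0498, adjusted p = 0.327). This share of the members was not above the share of all tested genes. Genes separated upward numbered 1860 and downward 970, but 1299 and 1478 with median-of-ratios scaling, so the excess of upward over downward separation turned into a downward one. With 1 library left out, when separation is easier by construction, 3483 to 4328 were separated upward and 2442 to 3395 downward. S phase and proliferation genes above 0 numbered 12 to 15 of 19 with a library left out, an alternative added after seeing the data. Summing the transcript rows, which counts shared reads more than once, gave mean levels of 34.2 RPKM for Dnmt3a, 12.2 RPKM for Dnmt3b and 38.2 RPKM for Uhrf1. Depth limits Tet1 and Dnmt3b most.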

Other observations

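All 7 genes differed in the same direction between the libraries numbered 1 and 2 in both genotypes. Dnmt1, Dnmt3a, Dnmt3b, Uhrf1 and Tet3 were higher in the library numbered 1, and Tet1 and Tet2 were lower there. Over all 10709 tested genes, 38% were higher and 39.4% lower in number 1 in both genotypes. For Tet3 the log2 difference of number 1 minus number 2 was 0.23 in WT and 0.26 in cKO, and for Dnmt3a it was 0.23 and 0.18, each larger than that gene's difference between genotypes. The labels do not say what the numbers stand for.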
